A study of Mus musculus with 36 samples.

Results

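Genes of the synaptic vesicle cycle and of exocytosis were followed through an allelic series of Chd8, which encodes a chromatin remodelling enzyme, in the embryonic mouse cortex. The set was drawn by symbol from the families of the synaptotagmins, syntaxins, syntaxin-binding proteins, synapsins, Vamp proteins, Rab3 GTPases, complexins, Sv2 glycoproteins, Rims and Unc13 proteins, with Snap25, Snap47, Syp and Nsf. Such a symbol was borne by 72 of the 46603 genes counted, and the 67 whose counts averaged 10 or more over the libraries form the set. The 5 others were Syt10, Cplx3, Vamp9, Syt8 and Cplx4, at mean counts of 4.44, 3.67, 2.83, 1.44 and 0.111. The genes nearest above the minimum were Stx19 at 16.8 and Syt15 at 28.2 counts.

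At a synapse, transmitter is stored in vesicles that dock at the active zone, are primed, and fuse with the plasma membrane when calcium enters. Fusion is driven by a bundle of SNARE proteins, formed by Vamp2 on the vesicle with a syntaxin and Snap25 on the membrane. Munc13 (Unc13a) and syntaxin-binding proteins assemble that bundle, complexins clamp and support it, synaptotagmins such as Syt1 sense calcium, and Nsf takes the bundle apart afterwards. Most of the remaining syntaxins and Vamps serve the same fusion step between the Golgi, endosomes and plasma membrane of every cell. In the embryonic cortex the neuronal members are switched on as progenitors become neurons, before synapses are present.

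Tissue labelled cortex was taken from C57Bl/6J embryos, neocortex at E12.5 and telencephalic vesicles at E10.5 by the study's account, and each group comprised 3 libraries. At embryonic day (E) 12.5 the wild type (Chd8 +/+) was set beside the heterozygous null (Chd8 +/-), the homozygous hypomorph (Chd8 neo/neo) and the hypomorph over the null (Chd8 neo/-), with RNA of 1 embryo per library. At E10.5 the embryos labelled sox1-Cre; Chd8f/f (cKO) were compared with a control group (Ctrl) labelled as a combination of Chd8f/f and Chd8 f/+, with RNA of 2 embryos pooled per library. The neo allele carries a selection cassette after exon 3 and lowers Chd8 expression, the null allele came from germline deletion of exon 3 with β-actinCre, and Sox1-Cre acts in the early neural tube, so that cells of other origin in the cKO tissue keep Chd8. Fragments assigned to genes ran from 38774591 to 61051667 per library at E12.5 and from 49632937 to 68488879 at E10.5.

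Among the E12.5 groups Chd8 itself was lowest in Chd8 neo/-, at 149.5 ± 8.48 CPM (counts scaled to the library total; mean ± SD, n = 3) against 238 ± 2.30 in Chd8 +/+. It stood at 167 ± 2.97 in Chd8 +/- and 210 ± 5.68 in Chd8 neo/neo, and at 120 ± 4.83 in cKO against 169 ± 11.3 in Ctrl. Counts over the whole gene do not separate cassette-spliced or exon-deleted transcripts from intact ones. The third neo/neo library read closer to Chd8 +/+ than the others of its group for most genes of the set. The numbers of genes passing the test are also given without it, and other neo/neo values only with it. Without it the median log2 fold change of the set in neo/neo moved from -0.18 to -0.26. Of the E12.5 libraries, Xist was high in 1 of 3 Chd8 +/+, 1 of 3 Chd8 +/-, 2 of 3 neo/neo and 0 of 3 neo/-. Radial glia markers summed to between 7016 and 7604 CPM in Chd8 +/+. Midbrain and hindbrain markers summed to between 90.1 and 106.6 CPM in Chd8 +/+, with 7 of 14 at 3 counts or fewer. Their sums were 93.98 to 120.6 CPM in Chd8 +/-, 110.0 to 150.6 in neo/neo and 107.4 to 120.6 in neo/-. Median log2 fold changes of the 7 tested went the other way, at -0.42 in neo/neo and -0.50 in neo/-. The part of these markers in the results was not tested.

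Expressed per kilobase of exon, so that genes of different length can be set side by side, Syt11 was the most abundant of the set in Chd8 +/+ cortex at E12.5, at 72.9 ± 3.01 CPM per kb. It is a synaptotagmin that does not bind calcium. Among the fusion SNAREs the vesicle protein gene Vamp2 was highest at 29.9 ± 1.71 and Vamp1 lowest at 0.949 ± 0.114 CPM per kb. Cplx2 (28.3 ± 2.26) exceeded Cplx1 (5.21 ± 0.970), and Rab3a (22.5 ± 3.08) led the Rab3 GTPases, which tether vesicles, with Rab3b lowest at 3.75 ± 0.403 CPM per kb. Of the syntaxin-binding genes Stxbp5l was lowest, at 0.213 ± 0.0258 CPM per kb. Among the synapsin, synaptophysin and Sv2 genes Sv2a stood at 11.3 ± 1.36 and Sv2c at 0.394 ± 0.0258 CPM per kb. Unc13b (8.22 ± 0.356) was the highest and Unc13c (0.274 ± 0.0498) the lowest of the active zone genes. SNAREs of general trafficking ranged from 41.4 ± 2.24 CPM per kb for the endosomal syntaxin Stx12 to 0.0958 ± 0.0523 for Stx19.

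The neuronal machinery rose between E10.5 and E12.5. In Chd8 +/+ at E12.5 against Ctrl at E10.5, 42 of the 67 genes rose and 12 fell at an adjusted p under 0.05 (edgeR quasi-likelihood test, Benjamini-Hochberg adjustment over 19565 genes). Over all genes 34.0% rose and 35.9% fell. The median log2 fold change was 1.02 for the set and -0.02 over all genes tested. All 4 Rab3 genes, both complexins, all 7 genes of the synapsin, synaptophysin and Sv2 group, 12 of 15 synaptotagmins, 7 of 8 active zone genes and 4 of 5 fusion SNAREs rose. By contrast 8 of the 18 trafficking SNAREs fell and 4 rose. In the group of syntaxin-binding proteins with Nsf, 2 of 8 rose and 3 fell.

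The largest rise was that of Syt4, a synaptotagmin of dense-core and postsynaptic vesicles, which read 0.403, 0.549 and 0.408 CPM in the Ctrl libraries and 31.5, 41.3 and 34.7 in Chd8 +/+ (log2 fold change 6.30 ± 0.31 SE). Rab3c went from 1.88, 1.23 and 1.63 to 71.8, 93.7 and 76.1 CPM (5.66 ± 0.17). Syt1, the fast calcium sensor, read 1.61, 0.882 and 3.20 CPM at E10.5 and 63.2, 80.4 and 73.6 at E12.5 (5.23 ± 0.32). For these genes every E12.5 library lay far above every E10.5 library. Syn2 (5.11 ± 0.32), Unc13c (4.38 ± 0.60) and Syt6 (4.07 ± 0.23) followed, of which Unc13c was at 0 in the third Ctrl library and at 0.0384 and 0.314 CPM in the others. Within the fusion core the rises were unequal. Snap25 rose by 3.15 ± 0.15 on the log2 scale, Vamp2 by 1.12 ± 0.06 and Stx1a by 0.63 ± 0.11. Cplx2 rose by 2.92 ± 0.07, while Nsf stood at 63.1, 64.8 and 62.7 CPM at E10.5 and 62.8, 69.7 and 67.8 at E12.5 (0.07 ± 0.05, adjusted p = 0.191).

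The largest falls were in Unc13d (-1.81 ± 0.15), the Munc13 of lytic granules in blood cells, from 11.003, 15.1 and 12.9 CPM in Ctrl to 4.36, 3.68 and 3.09 in Chd8 +/+. Stx3, a plasma membrane syntaxin of epithelia, fell by 1.12 ± 0.07, Vamp3, the Vamp of recycling endosomes, by 0.82 ± 0.04, and Stx18, a syntaxin of the endoplasmic reticulum, by 0.78 ± 0.05 on the log2 scale. Among exon bases of Stx18, 32.3% are shared with Nsg1 and another gene, whose reads cannot be separated from it. All 30 early neuron markers rose with the set, from a summed 464 to 744 CPM in Ctrl to 6846 to 8010 CPM in Chd8 +/+. In bulk tissue fewer cells of a type and less RNA per cell cannot be told apart. Stage coincides with genotype of the controls, dissection, pooling and sequencing experiment, which cannot be told apart from it.

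**Figure D1:**
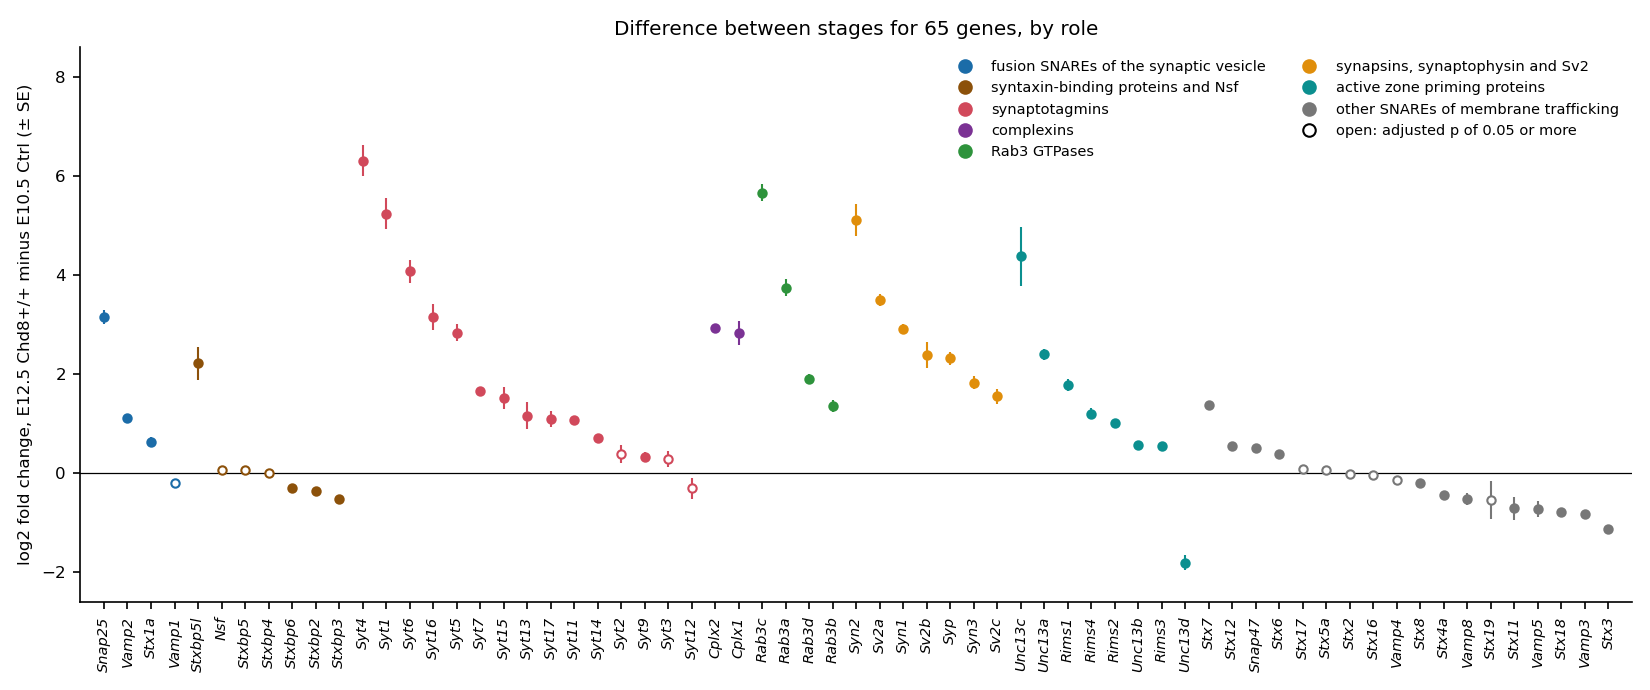
Log2 fold change between E12.5 Chd8 +/+ and E10.5 Ctrl cortex for 65 of the genes, grouped by role and coloured accordingly. Points are estimates of the 18-library edgeR model, bars are ± 1 SE, and open points had an adjusted p of 0.05 or more. Syt4, Rab3c and Syt1 stand highest, and 8 of the 12 genes that fell are trafficking SNAREs (grey).

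In both hypomorphic genotypes a minority of the set passed the test, mostly downward. In neo/neo 12 of the 67 genes fell, where 4.45% of the 18810 genes tested did, and 1 rose, where 3.71% did. In neo/- 10 fell (5.99% of all genes) and 2 rose (5.48%). Median log2 fold changes of the set were -0.18 in neo/neo and -0.15 in neo/-, against 0.01 and 0.00 over all genes. All 3 neo/neo libraries lay below all 3 Chd8 +/+ libraries for 29 genes of the set, 43.3%, against 13.6% of all genes, and for neo/- this held for 28 genes, 41.8%, against 17.2%. Both comparisons use the same Chd8 +/+ libraries, so neither is independent of the other.

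The groups differed in their medians, a difference that was not tested. In neo/neo the synapsin, synaptophysin and Sv2 genes had the lowest median (-0.47), with Syn1, Syn3 and Sv2a of 7 falling. They were followed by the complexins (-0.44, Cplx2 of 2 falling), the Rab3 genes (-0.42, Rab3c and Rab3d of 4), the active zone genes (-0.27, Rims1 and Rims2 of 8), the fusion SNAREs (-0.26, 2 of 5 falling, Snap25 among them), the synaptotagmins (-0.19, 0 of 15 falling and Syt9 rising) and the syntaxin-binding genes with Nsf (-0.16, 2 of 8 falling, Nsf among them). None of the 18 trafficking SNAREs passed the test, and their median was -0.01. In neo/- the synapsin, synaptophysin and Sv2 group and the complexins both had a median of -0.38. The Rab3 genes had -0.29, the fusion SNAREs -0.26 and the active zone genes -0.24. Of the trafficking SNAREs only Stx4a passed the test in neo/-, and it rose.

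**Figure D2:**
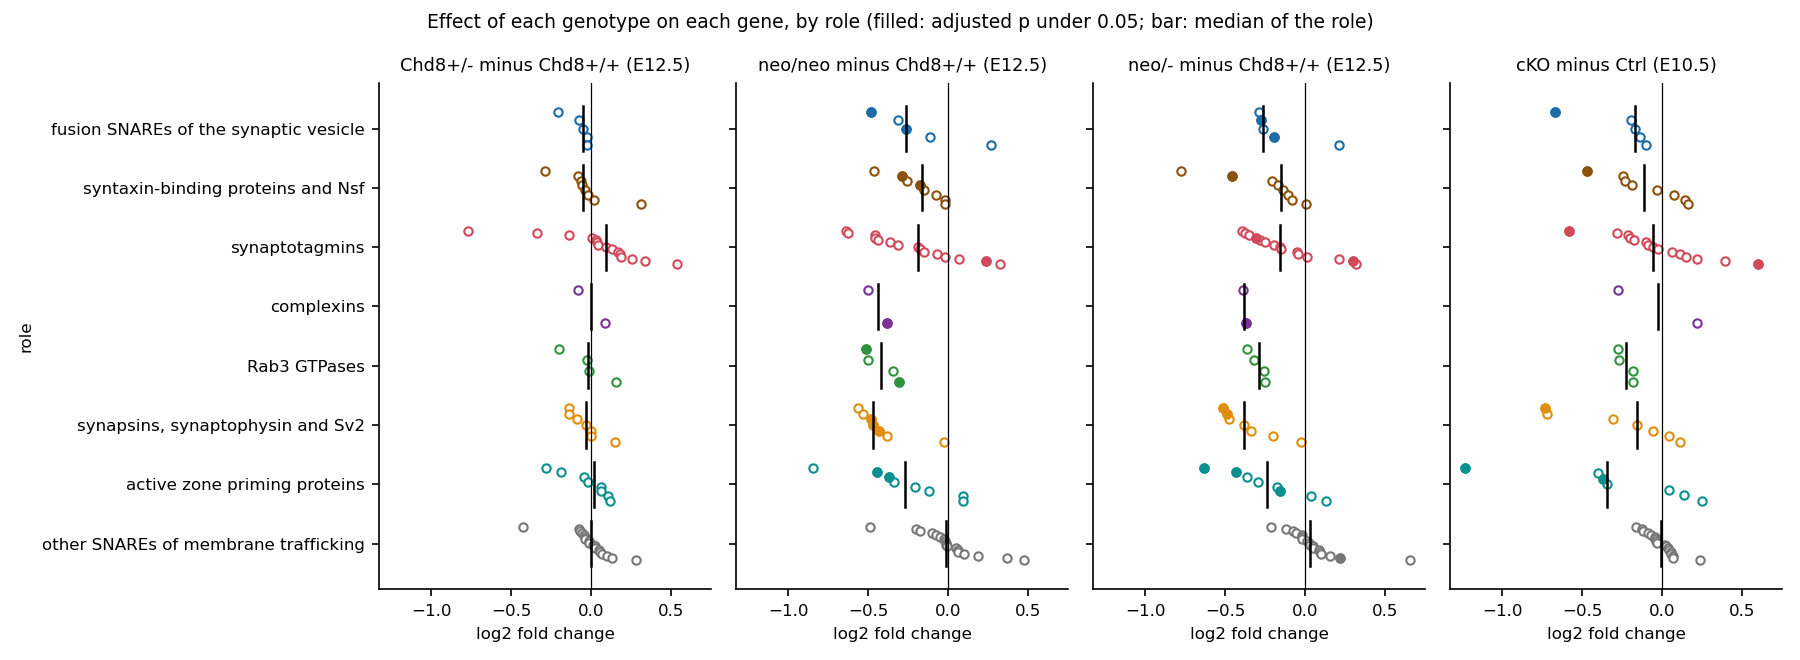
Log2 fold change of each gene in Chd8 +/-, neo/neo and neo/- against Chd8 +/+ at E12.5 and in cKO against Ctrl at E10.5, arranged by role. Filled points had an adjusted p under 0.05 and bars are role medians. In neo/neo and neo/- the medians of the other 7 roles lie between -0.15 and -0.47, and those of the trafficking SNAREs at -0.01 and 0.03.

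Rims2, which encodes a scaffold of the active zone that binds Rab3 and Munc13 (chr15:39198332-39681940 of GRCm38, plus strand), had the smallest adjusted p of the set in neo/-. It read 29.7, 33.5 and 33.0 CPM in Chd8 +/+, 26.9, 25.7 and 26.4 in Chd8 +/-, 23.6, 24.99 and 25.6 in neo/neo and 22.1, 18.1 and 21.9 in neo/-. None of the 4 groups overlapped its neighbour. The log2 fold change was -0.37 ± 0.07 in neo/neo (adjusted p = 0.00953) and -0.63 ± 0.07 in neo/- (0.000147). In Chd8 +/- it was -0.28 ± 0.07, with an adjusted p of 0.516. Its relative Rims1 read 9.41, 9.75 and 9.52 CPM in Chd8 +/+, 5.74, 6.90 and 8.39 in neo/neo and 6.67, 6.70 and 7.90 in neo/-. Rims1 fell by 0.44 ± 0.12 and 0.43 ± 0.12 on the log2 scale.

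Syn1 encodes synapsin I, which binds vesicles to actin and to each other. It stood at 33.3, 36.7 and 34.6 CPM in Chd8 +/+, 34.1, 31.7 and 29.2 in Chd8 +/-, 23.02, 25.2 and 26.4 in neo/neo and 22.7, 24.6 and 27.1 in neo/-. Both hypomorphs lay below every Chd8 +/+ and Chd8 +/- library. The log2 fold change was -0.48 ± 0.08 in neo/neo (adjusted p = 0.00316) and -0.49 ± 0.08 in neo/- (0.00124), and it passed the threshold under all 23 alternatives in each comparison, a sex-linked covariate included. Syn3, another synapsin, fell by 0.43 ± 0.11 in neo/neo and by 0.52 ± 0.11 in neo/-, from 11.2, 11.7 and 11.7 CPM to 8.20, 7.56 and 9.83 and to 7.34, 8.12 and 8.68. Timp3 lies within Syn3 and shares 14.1% of its exon bases.

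The sequence before the Syn1 start is shown because this gene fell in neo/neo, neo/- and cKO alike, and because its window held the closest match to the RE1 core among the genes searched. Syn1 lies on the X chromosome. RE1 is the element through which the repressor REST silences neuronal genes outside neurons. Bases -250 to -101 before the RefSeq start (GRCm38.p6, chrX:20921019-20921168, minus strand) read 5′ to 3′, with the RE1 match and a cAMP response element in capitals:

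Syn1 upstream: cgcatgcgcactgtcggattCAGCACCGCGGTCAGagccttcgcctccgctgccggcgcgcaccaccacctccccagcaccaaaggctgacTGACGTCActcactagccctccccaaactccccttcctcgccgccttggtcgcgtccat

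Promoter windows of 250 bases before to 50 after the start were held by RefSeq for 52 of the 67 genes. Their median content of G and C bases was 62.3%, against 52.7% over all windows. The shares below were not corrected for this difference. Both strands were searched for the RE1 core and for the cAMP response element TGACGTCA, which did not overlap. With 1 mismatch allowed, Syn1 alone of the 52 held the RE1 core (1.92%), against 0.211% of 27025 genes. With no mismatch allowed, 0 of 52 did, against 0.0407%. With 2 allowed, Syt2 and Syt6 joined it (5.77% against 2.22%). Those sites, with their flanks in lower case, read:

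Syt2: tgctGCGCACCGAGGACAGtccc

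Syt6: gatcCTGAACCCTGGACAGcccc

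The Syt6 match lies on the strand opposite to the gene. The cAMP response element was found in Syn1 and Stxbp3 (3.85% of 52 against 2.03% of all genes), in Stxbp3 as:

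Stxbp3: cgcgTGACGTCAcctg

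Syt6 stood at 9.58, 12.6 and 8.81 CPM in Chd8 +/+ and 7.96, 5.99 and 8.64 in neo/neo, groups that did not overlap but did not pass the test there. A match of letters is no evidence of binding, and no factor was measured.

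Cplx2, the complexin that was the more abundant per kb, read 127, 148 and 144 CPM in Chd8 +/+, 97.6, 106 and 117 in neo/neo and 105, 105 and 113 in neo/-. It fell by 0.38 ± 0.07 in neo/neo (adjusted p = 0.00628) and by 0.37 ± 0.07 in neo/- (0.00384) on the log2 scale. Of the SNARE core, Snap25 read 35.6, 41.0 and 32.0 CPM in Chd8 +/+ and 22.5, 23.6 and 31.6 in neo/neo, the third neo/neo library reaching to just under the lowest Chd8 +/+ library. It fell by 0.48 ± 0.13 in neo/neo (adjusted p = 0.0451), and its log2 fold change in neo/- was -0.29 ± 0.13 (0.181). Vamp2 fell by 0.19 ± 0.05 in neo/- (0.0339), and its value in neo/neo was -0.12 ± 0.05 (0.193).

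Stxbp2, a syntaxin-binding protein of epithelial and blood cells, read 28.2, 23.001 and 23.2 CPM in Chd8 +/+ and 18.7, 17.8 and 17.8 in neo/-. It fell there by 0.45 ± 0.08 (0.00262). Nsf fell in neo/neo by 0.17 ± 0.05, Rab3c by 0.51 ± 0.14, Rab3d by 0.31 ± 0.09 and the vesicle glycoprotein Sv2a by 0.47 ± 0.13. Syt7, a slow calcium sensor, fell in neo/- by 0.31 ± 0.05, from 62.3, 60.1 and 60.4 CPM to 48.7, 50.4 and 48.5, and Unc13b by 0.15 ± 0.05.

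Few genes rose. Syt9, a calcium-binding synaptotagmin, read 14.7, 15.1 and 14.7 CPM in Chd8 +/+, 17.3, 17.1 and 16.4 in Chd8 +/-, 18.4, 16.6 and 17.5 in neo/neo and 19.3, 17.7 and 17.7 in neo/-. It rose by 0.24 ± 0.06 in neo/neo and 0.30 ± 0.06 in neo/-, and its value in Chd8 +/- was 0.19 ± 0.06 (adjusted p = 0.649). All 9 libraries with a Chd8 mutation lay above the 3 without. Stx4a, a plasma membrane syntaxin of constitutive secretion, rose by 0.22 ± 0.05 in neo/-, from 17.6, 16.4 and 16.8 CPM to 19.7, 20.01 and 19.3. It shares 5.25% of its exon bases with a neighbouring gene.

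**Figure D3:**
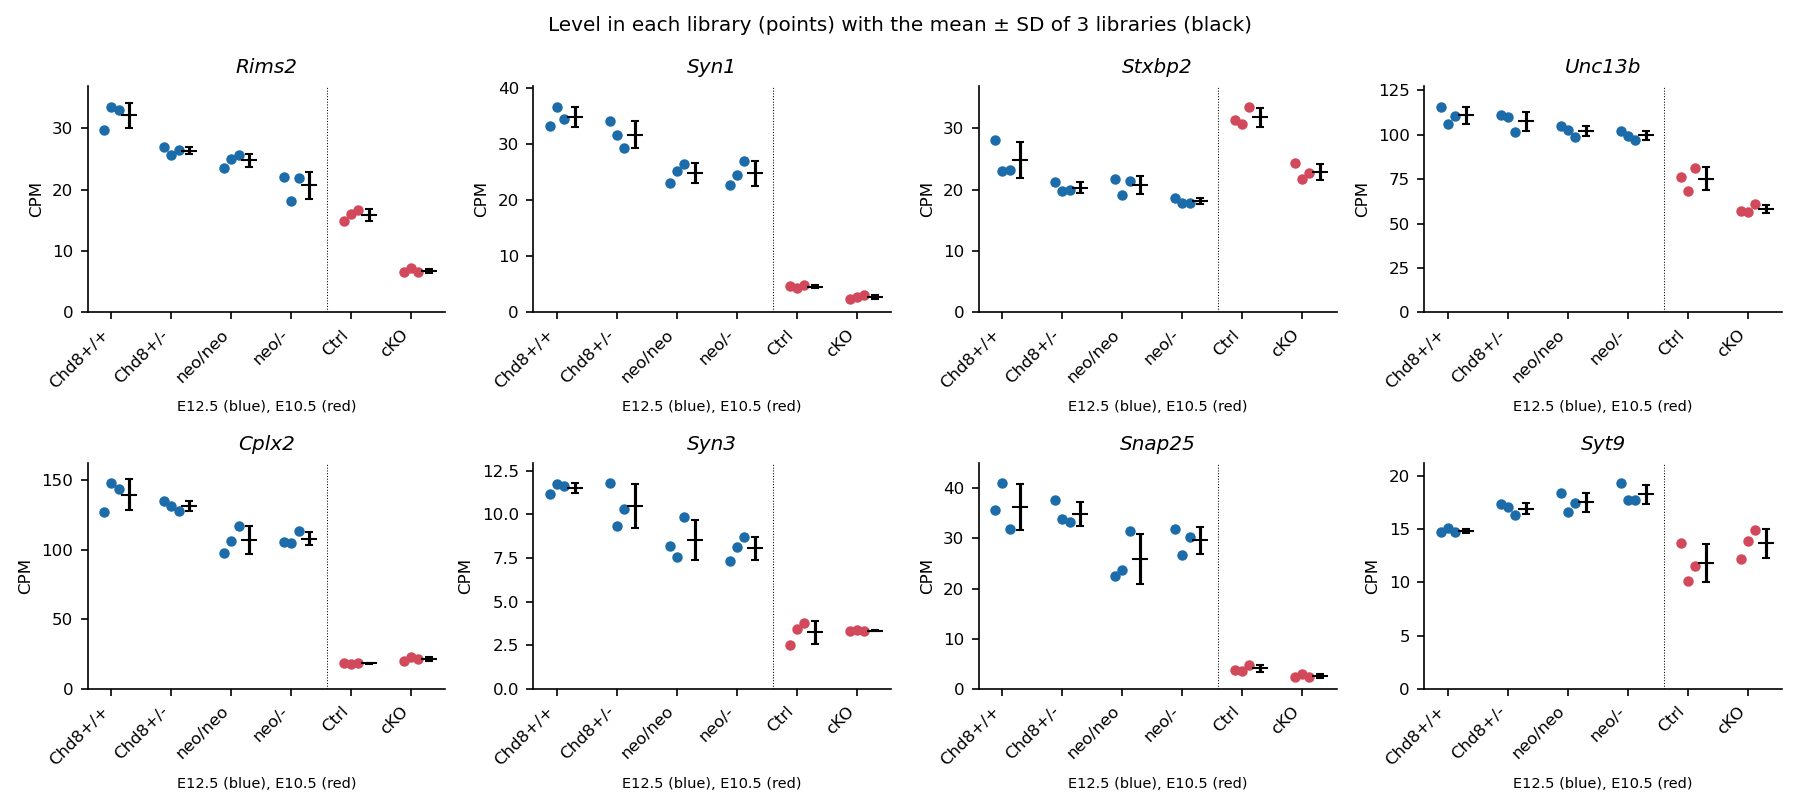
Levels in CPM (axes from 0) of 8 genes in every library, with mean ± SD of 3 libraries per group in black, E12.5 in blue and E10.5 in red. Rims2 and Syn1 are lower in neo/neo, neo/- and cKO than in their controls, while Cplx2 is lower in the hypomorphs but not in cKO.

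Several of the best known release genes did not pass the test in either hypomorph. Syt1 read 42.9, 53.4 and 61.5 CPM in neo/neo and 61.0, 53.9 and 67.5 in neo/-, for log2 fold changes of -0.46 ± 0.14 (adjusted p = 0.0711) and -0.25 ± 0.14 (0.291). Corresponding values were -0.38 ± 0.11 and -0.20 ± 0.11 for synaptophysin (Syp), -0.50 ± 0.17 and -0.36 ± 0.17 for Rab3a, -0.50 ± 0.22 and -0.39 ± 0.22 for Cplx1, -0.34 ± 0.11 and -0.29 ± 0.11 for Unc13a, and -0.31 ± 0.10 and -0.26 ± 0.10 for Stx1a. Syt4 had -0.63 ± 0.23 and -0.35 ± 0.23. Each of these 14 values lay below 0.

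How many genes passed in neo/neo depended on single libraries. Without the third neo/neo library 28 passed. Without the first or the second neo/neo library, or the second Chd8 +/+ library, 3 passed, and without the third Chd8 +/+ library 4. Leaving out the first Chd8 +/+, the third Chd8 +/- or a neo/- library, which share the estimate of spread, gave 6 to 8. Over all genes 837 fell and 697 rose in the full fit. Without the third neo/neo library 2605 of 19045 genes passed, and without the first or the second 565 and 435. Without the second or the third Chd8 +/+ library 564 and 800 passed. In neo/- the count of the set went from 12 to 7 without the second neo/- library and to 17 without the third neo/neo library. Over all genes 1127 fell and 1031 rose in neo/-, and 1015 and 2574 passed in these 2 fits. Summed over 16 release genes, the neo/neo libraries read 657, 697 and 810 CPM and neo/- 750.0, 716 and 789, against 875, 973 and 893 in Chd8 +/+. With a sex-linked covariate, 5 genes fell in neo/neo and 10 in neo/-. Syn1, Cplx2 and Rims2 passed the threshold under each of 23 alternatives in both hypomorphs. In neo/neo Syn3 passed under 16 of the 23, Syt9 under 14, Rims1 under 12, Rab3d under 9 and Snap25 under 7. In neo/- Stx4a passed under 16 and Rims1 under 15, while Syt9, Syt7, Stxbp2 and Syn3 passed under all 23.

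**Figure D4:**
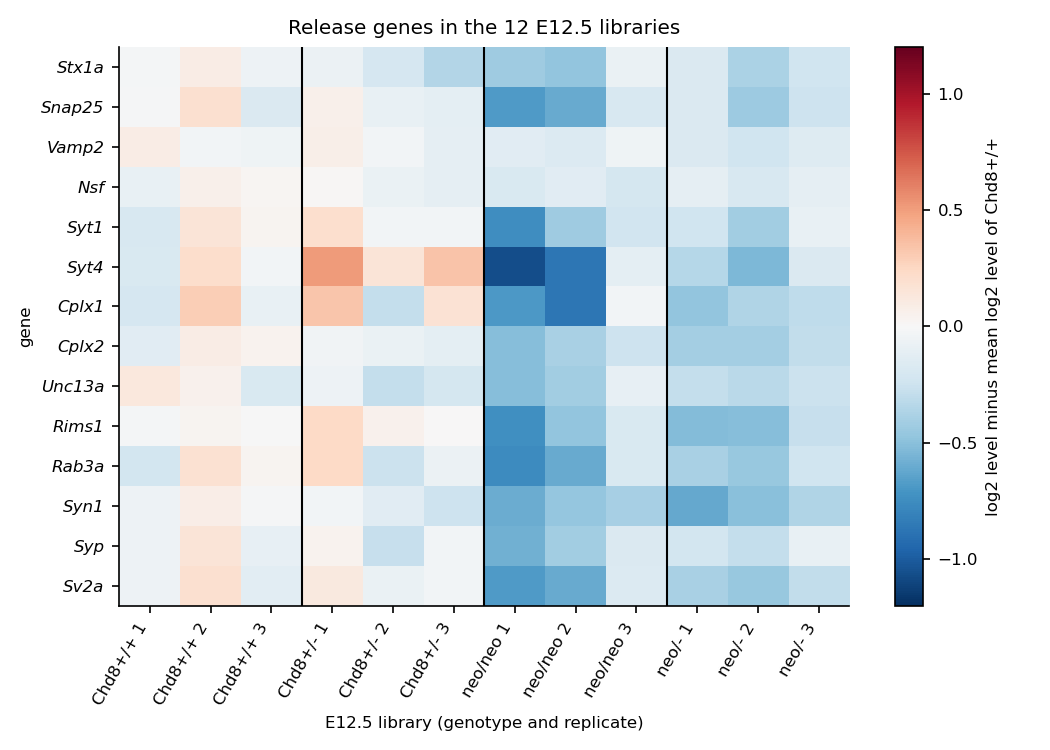
Heat map of 14 of the release genes (rows) in the 12 E12.5 libraries (columns), coloured by log2 level relative to the mean of Chd8 +/+, with blue lower and red higher. The neo/neo columns, whose levels summed over all 16 were 657, 697 and 810 CPM, are blue in the first and second libraries and paler in the third.

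Markers of early neurons moved in the same libraries. Of 30 such markers, none of which was at 3 counts or fewer at E12.5, 6 fell in neo/neo (median -0.30) and 4 in neo/- (-0.16), with Dcx, Map2 and Ncam1 falling in both. They summed to between 5527 and 6624 CPM in neo/neo and between 6102 and 6870 in neo/-, against 6846 to 8010 in Chd8 +/+ and 7084 to 8073 in Chd8 +/-. Of 20 radial glia markers 2 rose in neo/neo, Pax6 by 0.19 ± 0.04 and Sox2 by 0.29 ± 0.07, and none passed in neo/-, where the median was 0.06. Erythroid markers summed to between 4587 and 7128 CPM in neo/- against 3221 to 3936 in Chd8 +/+, and 5 of 10 rose. Over all genes 4.45% fell and 3.71% rose in neo/neo, and 5.99% fell and 5.48% rose in neo/-. The part of these markers in the result was not tested.

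In Chd8 +/- no change passed the test. None of the 67 genes passed the test with edgeR or with DESeq2, and 0.0213% of all genes passed. At an unadjusted p under 0.05 there were 6 of the 67, against 1190 of 18810 genes. The median log2 fold change was -0.01. The lowest unadjusted p was that of Rims2 (0.00145), followed by Stxbp2 and Syt15. Stxbp2 read 21.3, 19.7 and 19.9 CPM in Chd8 +/- and Syt15 0.418, 0.456 and 0.547 against 0.864, 0.854 and 0.726 in Chd8 +/+. Groups did not overlap for 6 lower genes (5.93% of all genes) and 3 higher genes (5.43%), near the shares over all genes. The second Chd8 +/- library read 24.1 CPM for Syt13 and 3.67 for Stxbp5l, against at most 12.9 and 2.06 in the other E12.5 libraries.

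Both hypomorphs were also set against Chd8 +/-. In neo/neo 6 genes fell (3.28% of all genes) and none rose (2.0%). These were Rims1 (-0.54 ± 0.12), Syn1 (-0.34 ± 0.08), Cplx2 (-0.30 ± 0.07), Rab3c (-0.67 ± 0.14), Syt6 (-0.62 ± 0.16) and Syt4 (-0.96 ± 0.23). Deviations of same-numbered libraries of these groups correlated weakly (0.108, 0.196 and 0.199), and no source states a pairing. Between neo/neo and Chd8 +/+ such correlations ran from -0.266 to 0.0495. With the replicate number as a block 3 of the 6 genes fell against Chd8 +/-, namely Rims1, Syn1 and Cplx2. Syt4 read 50.8, 39.6 and 45.3 CPM in Chd8 +/- and 16.996, 19.6 and 32.8 in neo/neo, with an adjusted p of 0.0499 that became 0.0593 under the block. The count of 6 again changed with single libraries. Without the third neo/neo library 26 passed, and none without the first neo/neo, the second neo/neo or the first Chd8 +/- library. Without the second or the third Chd8 +/- library 3 and 2 passed. In a fit of these 2 groups alone no gene of the set passed, with or without the block. Over all genes 617 fell and 377 rose in the full fit, and 2100 passed without the third neo/neo library. Without the first neo/neo, the second neo/neo or the first Chd8 +/- library 60, 23 and 62 did. Without the second or the third Chd8 +/- library 690 and 308 did. The fit of these 2 groups alone gave 42 over all genes, or 77 with the block.

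In neo/- against Chd8 +/- 5 genes fell (3.25%) and 2 rose (2.18%). Rims2 (-0.35 ± 0.07), Syn1 (-0.35 ± 0.08), Rims1 (-0.53 ± 0.12), Cplx2 (-0.29 ± 0.07) and Syt7 (-0.17 ± 0.05) fell. Of these, Syt7 passed under 6 of 23 alternatives and the others under 18 to 21. Stx4a (0.26 ± 0.05) and Syt15 (0.98 ± 0.21), a synaptotagmin of low abundance that read 0.825, 0.967 and 1.03 CPM in neo/-, rose. None passed without the second neo/- library, and 1 without the first Chd8 +/- library, 2 without the first neo/- library and 13 without the third neo/neo library. Over all genes 611 fell and 410 rose in the full fit, and 255, 290, 244 and 1439 passed in these fits, in that order. Between neo/- and neo/neo no gene passed with edgeR or DESeq2. Of all genes 0.0159% passed, and the median was 0.04. At an unadjusted p under 0.05 there were 6 of the 67, against 1585 of 18810 genes.

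At E10.5 6 of 66 genes fell in cKO (5.7% of 18435 genes) and 1 rose (5.75%). Unc13c was too low to be tested. The median was -0.08 against 0.00 over all genes. Rims2 had the largest fall, from 14.9, 15.9 and 16.7 CPM in Ctrl to 6.53, 7.18 and 6.50 in cKO, a 2.34-fold reduction (log2 -1.23 ± 0.09, adjusted p = 3.27e-05). Syn1 fell by 0.73 ± 0.13, from 4.69, 4.31 and 4.83 to 2.41, 2.79 and 3.09 CPM. Snap25 fell by 0.67 ± 0.15, from 3.76, 3.65 and 4.78 to 2.43, 2.94 and 2.29 CPM. In each of these the groups stood apart.

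Stxbp2 fell by 0.47 ± 0.07, from 31.3, 30.6 and 33.5 to 24.3, 21.7 and 22.7 CPM. Unc13b, a Munc13 present in many tissues, fell by 0.37 ± 0.07 from 76.0, 68.5 and 81.5 to 57.0, 56.6 and 61.0 CPM. Syt3 fell by 0.58 ± 0.14, from 3.99, 4.66 and 3.76 to 2.81, 2.39 and 3.09 CPM. Syt12, a synaptotagmin lacking the usual calcium-binding residues, was the gene that rose, by 0.60 ± 0.14, from 2.09, 2.23 and 1.95 to 3.22, 3.45 and 2.85 CPM, and 17.2% of its exon bases are shared with a neighbouring transcript. Of 28 early neuron markers tested 1 rose, Crmp1 by 0.24 ± 0.06, with 0 falling and a median of 0.01, and they summed to between 547 and 691 CPM in cKO against 464 to 744 in Ctrl, 2 of 30 being at 3 counts or fewer in each group. Mesenchyme and meninges markers summed to between 1020 and 1203 CPM in cKO against 832 to 913 in Ctrl, 3 of 10 rising. Midbrain and hindbrain markers summed to between 157 and 182 CPM against 130 to 140. Of 6 tested 2 rose, Otx1 by 0.39 ± 0.07 and Lmx1a by 0.36 ± 0.10, and 1 fell, Pax8 by 1.62 ± 0.32 (median -0.02). Neuroendocrine markers summed to between 95.2 and 98.99 CPM in cKO against 96.7 to 126 in Ctrl, with 2 of 9 tested falling (Chga by 1.02 ± 0.16 and Pomc by 0.80 ± 0.19, median -0.38). Of 12 Cajal-Retzius markers 2 fell, Ndnf and Cxcr4, with a median of 0.13, and of 16 ventral telencephalon markers 1 fell, Gsx2, with a median of -0.38. None of the mesenchyme, Cajal-Retzius and ventral markers, 1 of the 12 neuroendocrine markers and 5 of the 14 midbrain and hindbrain markers were at 3 counts or fewer. Over all genes 5.7% fell and 5.75% rose in cKO. The part of these marker lists in the result was not tested. Only 4 genes of the set passed without the second cKO library. Over all genes 538 of 18734 passed without it, where 1050 fell and 1060 rose in the full fit. Xist was high in 2 of 3 Ctrl and 3 of 3 cKO pools, and Syn1 is X-linked.

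The neo/- and cKO comparisons share no library. Rims2, Stxbp2, Syn1 and Unc13b fell in both, 40% of the 10 that fell in neo/- and 66.7% of the 6 that fell in cKO. For neo/neo the shared genes were Rims2, Snap25 and Syn1, 25% of 12 and 50% of 6. Over all genes tested in both, 238 fell in neo/- and cKO, 21.4% of 1113 and 22.8% of 1046, and 159 in neo/neo and cKO, 19.7% of 809 and 15.2% of 1046. The counts in the set are small, and the difference from all genes was not tested. No gene of the set rose in both.

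The difference between the E12.5 and the E10.5 effect was tested in a model of all 18 libraries. It passed for 5 of the 67 genes for neo/neo and 3 for neo/-, near the shares over all genes of 6.8% and 6.79%. Cplx2 was lower in the hypomorphs but read 19.9, 23.2 and 21.1 CPM in cKO against 18.3, 18.1 and 18.8 in Ctrl, a difference of effects of -0.60 ± 0.10 for neo/neo (adjusted p = 0.00137) and -0.59 ± 0.10 for neo/- (0.00184). Rims2 went the other way, its fall being larger in cKO by 0.86 ± 0.11 than in neo/neo (0.000103) and by 0.60 ± 0.11 than in neo/- (0.00332). Sv2a and Nsf differed for neo/neo, by -0.58 ± 0.17 (0.0465) and -0.24 ± 0.07 (0.0359). Stage, kind of allele and experiment cannot be told apart in these differences.

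The hypomorph effect was set against the stage difference for each gene. Stage was taken from Chd8 +/- at E12.5 minus Ctrl at E10.5, so that neither axis holds a group compared on the other, although the Chd8 +/- libraries share the estimate of spread behind the calls. Of the 19 genes more than 2 log2 units higher at E12.5 all 19 had a value below 0 in neo/neo (median -0.48, 6 falling) and all 19 in neo/- (median -0.36, 2 falling). Over all genes, whatever their stage difference, 48.8% and 49.7% lay below 0. Of the 19 that were not higher at E12.5, 10 and 8 lay below 0, with medians of -0.01 and 0.03. Spearman's rho over the 67 genes was -0.74 for neo/neo and -0.66 for neo/-. Genes are not independent replicates, and all values of an axis share the same libraries. Rims2 and Stxbp2 lay apart from this relation in neo/-. Rims2 had one of the lowest values of the set with a small stage difference, and Stxbp2 fell although it was higher at E10.5. Genes outside the set with a like stage difference were not counted. Early neuron markers, with a median log2 rise of 3.75 from Ctrl to Chd8 +/+, had medians of -0.30 in neo/neo and -0.16 in neo/-.

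**Figure D5:**
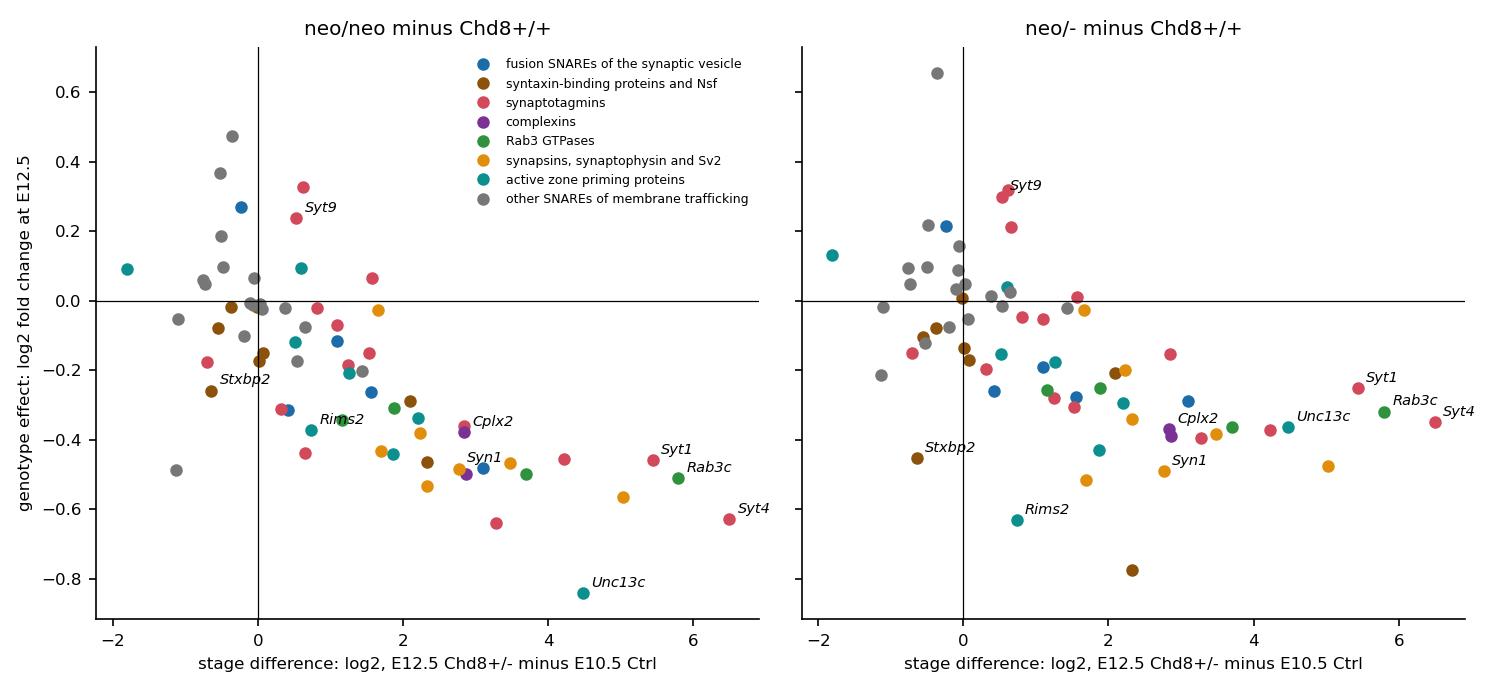
Each point is 1 of the 67 genes, with the log2 stage difference (E12.5 Chd8 +/- minus E10.5 Ctrl) on the x axis and the log2 fold change of neo/neo (left) or neo/- (right) against Chd8 +/+ on the y axis, coloured by role. All 19 genes more than 2 log2 units higher at E12.5 lie below 0 in both panels, while genes nearer the middle lie on both sides, with Spearman's rho of -0.74 and -0.66.

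Other presynaptic genes, a list of active zone scaffolds, vesicle proteins and transporters outside the set, are given by their counts. Over all genes 4.45% fell and 3.71% rose in neo/neo, 5.99% and 5.48% in neo/-, and 5.7% and 5.75% in cKO. Of 48 tested 13 fell and 1 rose in neo/neo (median -0.24), 9 fell and 1 rose in neo/- (-0.19), and of 44 tested 5 fell and 1 rose in cKO (-0.11). Those falling included the active zone scaffolds Bsn (-0.47 ± 0.08 in neo/neo, -0.62 ± 0.08 in neo/- and -0.51 ± 0.10 in cKO) and Rimbp2 (-0.58 ± 0.09, -0.72 ± 0.09 and -0.85 ± 0.16), a partner of the Rims. Of 26 endocytosis genes 5 fell and 2 rose in neo/neo and 6 fell and 1 rose in neo/-, among them Dnm3, a dynamin that cuts vesicles from the membrane (-0.64 ± 0.12 and -0.65 ± 0.12). In cKO none of the endocytosis genes fell and 3 rose, Ap2a2, Ap2a1 and Dnm2. Of 29 general secretory SNARE and exocyst genes 2 fell in neo/neo, 1 fell and 1 rose in neo/-, and 3 fell and 3 rose in cKO, with medians of -0.02, -0.02 and -0.01.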

How the data were processed

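Reads were trimmed with Trim Galore 0.4.1 and aligned with TopHat 2.1.0 to GRCm38.p4, and the deposited values are featureCounts 1.5.0 counts per gene, as the authors' methods and the submitters' processing notes state. The counts ignored strand, so overlapping antisense genes cannot be told apart. The 2 sequencing runs of each library were summed to 18 libraries. Counts were tested with edgeR 4.0.16 (quasi-likelihood, TMM, filterByExpr), the 12 E12.5 libraries in 1 fit, the 6 E10.5 libraries in another and all 18 for stage, with Benjamini-Hochberg adjustment over all genes tested and a threshold of 0.05. The script was tested on simulated data. Levels are CPM on a joint TMM scale, with a pseudocount of 0.05 CPM for the stage difference by gene.

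Named were genes that passed with groups apart (up to 8 per direction and comparison), the 16 release genes regardless of result, the 6 largest rises and 4 largest falls between stages, and the extremes of each role. Members, lists and tests were chosen with earlier results of these data known. Alternatives were DESeq2 1.42.0, other scalings and filters, single runs, a replicate block, length and GC correction, fewer groups, a sex-linked covariate and each library left out. The tests of a difference between stages, and the fit of neo/neo and Chd8 +/- alone with the block, were added after seeing the data. Same-numbered neo/neo and Chd8 +/- libraries correlated in their deviations (0.108, 0.196 and 0.199), though no source states a pairing. Replicates are separate embryos or pools. Some results that the rule would name are not reported here.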

Additional observations from a re-analysis of the deposited data

Results flagged for a closer look

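The log2 fold change of the hypomorphs at E12.5 differed from that of cKO at E10.5, by a test of the difference itself with edgeR across all genes, for 5 of the 67 genes in neo/neo and 3 in neo/-, of which 4 and 2 are given. Over all genes 6.8% and 6.79% differed, near these shares, and stage, kind of allele and experiment cannot be told apart. Differences of log2 fold change (hypomorph minus cKO) were -0.59 for Cplx2 and 0.60 for Rims2 in neo/-. In neo/neo they were 0.86 for Rims2, -0.60 for Cplx2, -0.24 for Nsf and -0.58 for Sv2a. For Cplx2 all 3 cKO libraries lay above all 3 Ctrl libraries, though it did not pass the test in cKO. Groups of 3 libraries were too small to be screened for outlying samples.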

How the results depend on the processing

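Numbers of genes of the set that passed changed with the processing in several comparisons, and no named gene changed direction. For neo/neo against Chd8 +/+ (13 genes) 25 passed with DESeq2, 8 with the first run only, 7 with the second run only, 7 with length and GC trend removed, 3 with only the 2 groups compared, 7 with the replicate block and 5 with the sex-linked covariate. Over all genes 837 fell and 697 rose in the main fit. These alternatives called 2288, 1134, 1074, 946, 430, 1161 and 1005 genes, in the same order. For neo/- against Chd8 +/+ (12) 24 passed with only the 2 groups compared. Over all genes 1127 fell and 1031 rose in the main fit, and 2687 passed with only the 2 groups. For neo/neo against Chd8 +/- (6) 19 passed with DESeq2, 2 with length and GC trend removed, 2 with the sex-linked covariate, 3 with the replicate block, and 0 with only the 2 groups compared, with or without the block. Over all genes 617 fell and 377 rose in the main fit. DESeq2 called 1797 of all genes, length and GC correction 254, the covariate 387 and the block 572. The 2 groups alone gave 77 with the block and 42 without. For neo/- against Chd8 +/- (7) 13 passed with DESeq2, 12 with only the 2 groups compared and 3 with the second run only. Over all genes 611 fell and 410 rose in the main fit, and these alternatives called 1702, 1508 and 696. For cKO (7) 11 passed with DESeq2. Over all genes 1050 fell and 1060 rose in cKO in the main fit, and DESeq2 called 2712. The cause was not tested. Leaving out each library in turn gave 3 to 28, 7 to 17, 0 to 26, 0 to 13 and 4 to 8 genes in these 5 comparisons and 52 to 55 between stages. Over all genes the ranges were 435 to 2605, 1015 to 2574, 23 to 2100, 244 to 1439, 538 to 2483 and 13124 to 13846. For cKO the lowest count came without its second cKO library, and for neo/- against Chd8 +/+ (7) without its second neo/- library. Chd8 +/- against Chd8 +/+ and neo/- against neo/neo stayed at 0 throughout. The replicate block left 12 genes in neo/- against Chd8 +/+, 6 in neo/- against Chd8 +/-, 8 in cKO and 54 between stages, and 1721, 688, 2598 and 13646 over all genes. In these comparisons libraries share only a number. Of the values of named genes under an alternative, 1182 kept the call and 215 missed the threshold with the same sign, among them Snap25 in neo/neo, which passed under 7 of 23. The fit of neo/neo and Chd8 +/- alone with the block was chosen after seeing the data.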
